A study of Mus musculus with 10 samples.

Results

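The genes described are 8 leukocyte adhesion molecules of the endothelium, *Icam1*, *Icam2*, *Vcam1*, *Sele*, *Selp*, *Madcam1*, *Alcam* and *Mcam*. They were chosen by name, with earlier results of these data known. All 8 stood on 1 row each among the 27024 named rows of the expression table. They were measured by bulk RNA-seq in bEnd.3 cells, a wild-type immortalised line of mouse brain endothelial cells, after 16 h in growth medium with either 5 nM StcE or the same volume of saline. StcE is a bacterial mucinase, an enzyme that cleaves the heavily O-glycosylated stretches of mucin-domain proteins, and the comparison asks how brain endothelial cells respond in their RNA when such proteins are cut at the cell surface. There were 5 saline samples (replicates 1, 2, 3, 4 and 5) and 5 StcE samples (replicates 1, 2, 3, 5 and 6), and 0 samples with an inactive enzyme, so that cleavage and any other effect of the enzyme preparation cannot be told apart. Nothing states that the samples came from separate cultures beyond their replicate numbers, and all are from 1 cell line, so the p-values measure only the spread between these samples.

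Leukocytes leave the blood in steps, and each step uses its own molecules on the vessel wall. Selectins catch passing cells by their glycans and let them roll, immunoglobulin-family molecules such as ICAM1 and VCAM1 then hold the integrins of the arrested cell, and junctional molecules guide its passage. In resting brain vessels E-selectin, VCAM1 and ICAM1 are kept low, and inflammatory cytokines raise them through the transcription factor NF-κB. The study also stained cells of this line by flow cytometry for ICAM1, VCAM1, P-selectin and E-selectin proteins, which are not analysed here.

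The members fall into 3 roles. *Selp* (P-selectin, stored in Weibel-Palade bodies and moved to the surface within minutes) lies on chromosome 1 from 164115264 to 164150026 of GRCm38, plus strand, and *Sele* (E-selectin) lies beside it from 164048234 to 164057677, plus strand. Of the integrin ligands, *Icam1* (chromosome 9, 21015985 to 21028817, plus strand) and *Icam2* (chromosome 11, 106377656 to 106388075, minus strand) bind LFA-1, *Vcam1* (chromosome 3, 116109949 to 116129688, minus strand) binds α4 integrins, and *Madcam1* (chromosome 10, 79664559 to 79668537, plus strand) is the mucin-bearing ligand that steers lymphocytes to the gut. *Alcam* (chromosome 16, 52248996 to 52454074, minus strand) binds CD6 on T cells, and *Mcam* (CD146, chromosome 9, 44134469 to 44142727, plus strand) sits at endothelial junctions. All are protein-coding genes.

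The windows upstream of *Icam1* and *Sele* are shown because both genes are textbook targets of NF-κB, whose components are described further on. Each is the 250 bases before the RefSeq start on GRCm38.p6, written 5′ to 3′ in the direction of the gene. They lie at chr9:21015690-21015939 (plus strand) and chr1:164047984-164048233 (plus strand), and 0 of their bases fall in a GENCODE vM21 exon. Capitals mark matches, on either strand, to the κB letters GGGNNNNNCC or GGAAATTCC.
Icam1: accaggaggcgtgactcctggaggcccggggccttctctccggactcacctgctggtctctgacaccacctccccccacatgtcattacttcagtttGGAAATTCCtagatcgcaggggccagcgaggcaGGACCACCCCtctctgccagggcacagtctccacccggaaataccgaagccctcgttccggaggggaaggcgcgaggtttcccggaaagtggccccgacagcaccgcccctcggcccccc
Sele: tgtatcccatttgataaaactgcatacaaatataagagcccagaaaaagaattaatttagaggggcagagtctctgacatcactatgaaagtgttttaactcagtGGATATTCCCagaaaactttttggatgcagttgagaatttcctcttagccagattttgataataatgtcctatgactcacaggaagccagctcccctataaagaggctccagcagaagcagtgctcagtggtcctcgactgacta

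In *Icam1* the κB letters stood at -153 (GGAAATTCC) and, on the minus strand, at -120, counted from the first base before the start as -1. The *Sele* window held 1 minus-strand match at -145, an AP-1 match (TGANTCA) at -73 and a TATAAA at -49. Over 32817 promoter windows of the same length, GGAAATTCC was in 0.286%, GGGNNNNNCC in 45.8%, TGANTCA in 6.75% and TATAAA in 12.4%, both strands counted. The looser κB letters are therefore a common match, and also stood in the windows of *Selp*, *Madcam1* and *Mcam*. The table held 6 of the 8 members, without *Vcam1* and *Icam2*. The *Alcam* window had 0 matches to either form and lies, in GENCODE, wholly inside the first exon of a longer *Alcam* transcript, as the *Mcam* window lies inside exons, so neither is printed. A match describes letters and is not a binding site.

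Depth was recovered from the deposited FPKM (fragments per kilobase of exon, corrected for sequencing depth) with GENCODE vM21 exon lengths, which turned 96.4% of the nonzero values into whole fragments. Over the 25875 genes with whole fragments in every sample, the samples held 21864510 to 33147226 fragments. Saline and StcE samples lay on opposite sides of the first principal component (27.9% of the variance). All 12 endothelial markers were expressed, with a summed level of 1783.5 to 1883.6 FPKM in saline and 1680.1 to 1764.6 in StcE samples, which did not overlap. Of the 8 brain endothelial markers, *Slco1c1* and *Slc38a5* were not among the named rows, so their level is not known. *Cldn5*, *Slc2a1* and *Slc7a5* were above a mean of 1 FPKM, and *Abcb1a*, *Mfsd2a* and *Ocln* were below it. Of the 9 leukocyte markers only *Cd68* was above it (20.4 FPKM in saline, 19.7 in StcE), while *Ptprc*, which marks all leukocytes, did not exceed 0.00198 FPKM.

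The resting cells expressed 7 of the 8 molecules. FPKM is a level per length, and fragments were recovered with all exons of a gene joined. That length was 8870 bases for *Vcam1* and 7121 for *Alcam*, whose longest transcripts have 4088 and 6036. For *Mcam* and *Icam2* it was 3350 and 1904, against 2989 and 1282. The order within these 2 pairs therefore depends on the length used. By deposited FPKM the saline samples ran from *Mcam* at 124.2 ± 5.28 FPKM (SD, n = 5) and *Icam2* at 115.3 ± 3.01, through *Selp* at 51.7 ± 1.21 and *Sele* at 25.2 ± 0.297, to *Alcam* at 9.94 ± 0.466, *Vcam1* at 6.67 ± 0.674 and *Icam1* at 1.91 ± 0.180. The constitutive molecules *Mcam* and *Icam2* thus stood at ranks 371 and 417 of the 11062 genes tested, and *Icam1* at rank 9864. The order of the 8 genes by deposited FPKM was the same after StcE. Every neighbour in that order was separated sample by sample in both groups, except *Mcam* and *Icam2* in saline samples, whose ranges overlapped with means that differed 1.08-fold. After StcE that pair no longer overlapped, at a 1.21-fold difference, and the ratio of *Alcam* to *Vcam1* was 1.49 in saline and 2.45 in StcE samples.

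The gut-homing ligand *Madcam1* was at the limit of detection. It was at 0.0458, 0.165, 0.157, 0.0911 and 0.0573 FPKM in saline replicates 1 to 5, and at 0.148, 0.126, 0.120, 0.0994 and 0.0828 in StcE replicates 1, 2, 3, 5 and 6. These values rest on 2 to 6 fragments a sample, 19 in all with saline and 24 with StcE, against a floor of 3 fragments a sample. The groups overlapped fully, a difference was not detectable at this depth (exact two-sided permutation test, p = 0.643), and no fold is given. Fragment-based statements cover counting error only.

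**Figure D1:**
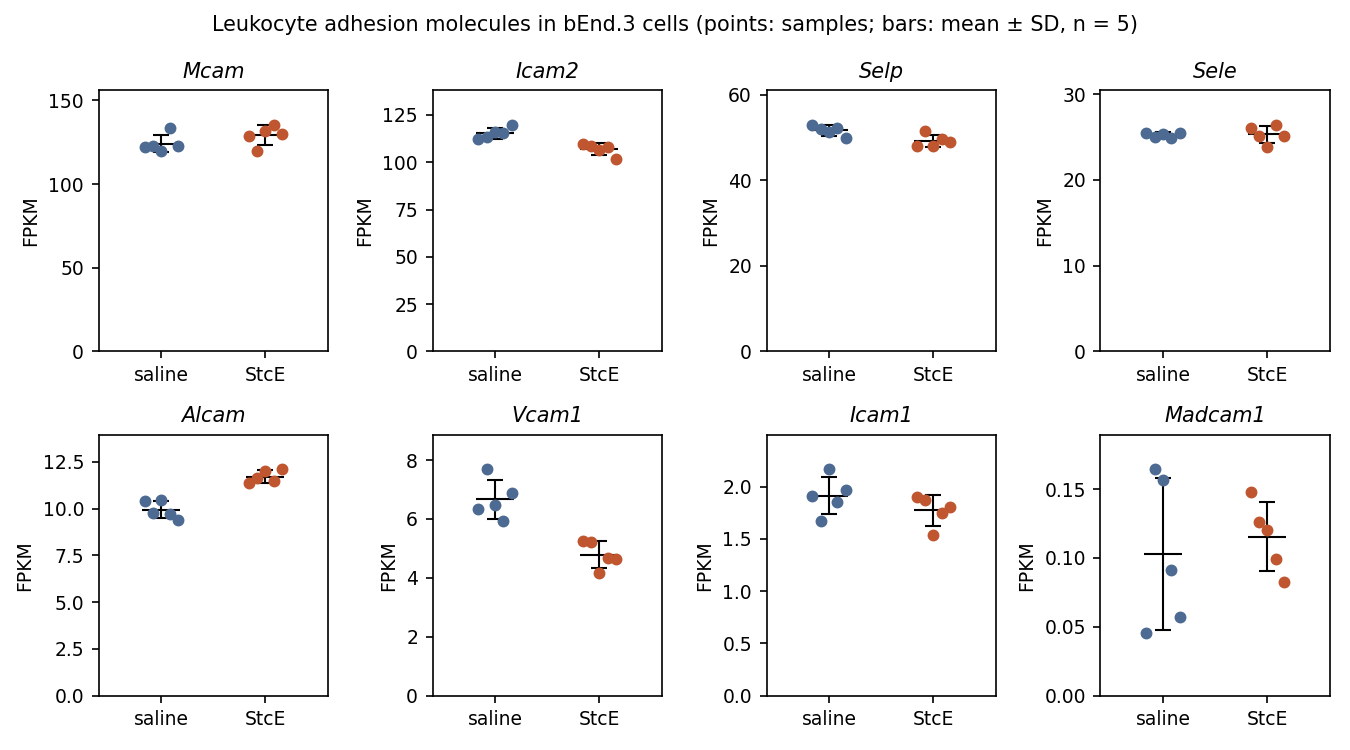
FPKM of the 8 leukocyte adhesion molecules in each bEnd.3 sample, in order of their mean level, with a linear axis from 0 for each gene. Points are samples (saline left, StcE right) and bars the mean ± SD of 5 samples; the groups stand apart for *Icam2*, *Alcam* and *Vcam1* and overlap for the other 5 genes.

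After StcE the 7 expressed molecules did not move as a block. *Vcam1* fell by 28.3% of its mean FPKM, *Icam2* fell by 7.31% and *Alcam* rose by 17.9%, while *Sele*, *Selp*, *Icam1* and *Mcam* did not pass the test. Fold changes are differences of log2(FPKM + 1), a scale that understates the change of genes with low FPKM, tested with limma over all 11062 genes whose mean FPKM reached 1 and called at an adjusted p under 0.05. By that rule 3 of the 7 were called, against 11.9% of all genes. Of these, 2 were lower, where 6.41% of all genes were, and 1 was higher, where 5.52% were. The same 3 had groups that did not overlap, as did 10.7% of all genes. The median log2 fold change of the 7 was -0.071, and that of all genes -6.6e-04, while the median size of a called change was 0.17 over all called genes. In bulk samples less RNA per cell and fewer cells of a type cannot be told apart.

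*Vcam1* had the largest change of the 7. It was at 6.34, 7.70, 6.48, 5.92 and 6.88 FPKM in saline replicates 1 to 5, and at 5.24, 5.22, 4.16, 4.66 and 4.63 in StcE replicates 1, 2, 3, 5 and 6. Every StcE sample lay below the lowest saline sample, and saline replicate 2 was the highest of all. The mean went from 6.67 ± 0.674 to 4.78 ± 0.455 FPKM (SD, n = 5 each), which is -0.41 in log2 (FPKM + 1) units (standard error 0.0670, 95% confidence interval -0.55 to -0.26, limma adjusted p = 0.00287). On the plain ratio of means the log2 change was -0.48, since the added 1 weighs at this level. The values rest on 1035 to 1733 fragments a sample, for a counting error of 2.69%, while the replicates of a group varied by 9.82%.

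*Alcam* went the other way. It was at 10.4, 9.76, 10.4, 9.71 and 9.39 FPKM in saline replicates 1 to 5, and at 11.4, 11.6, 12.0, 11.5 and 12.1 in StcE replicates 1, 2, 3, 5 and 6. No StcE sample was as low as the highest saline sample, and the groups did not overlap. The mean went from 9.94 ± 0.466 to 11.7 ± 0.330 FPKM, or by 0.22 in log2 units (standard error 0.0331, 95% confidence interval 0.15 to 0.29, limma adjusted p = 0.00183). The genes whose standardised values followed *Alcam* most closely over the 10 samples were *S100a7a*, which went from 17.5 ± 2.16 to 29.3 ± 2.31 FPKM, *Fmn1*, which encodes a formin that assembles actin filaments (6.27 ± 0.375 to 7.97 ± 0.528), and *Axl*, a receptor tyrosine kinase (4.80 ± 0.300 to 6.02 ± 0.436). Their values differed from those of *Alcam* by a mean of 0.113, 0.148 and 0.167 standard deviations a sample, which describes these 10 samples and includes the difference between the groups.

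*Icam2* fell by less. It was at 112.2, 113.2, 115.8, 115.4 and 120.0 FPKM in saline replicates 1 to 5, and at 109.4, 108.8, 106.8, 107.8 and 101.5 in StcE replicates 1, 2, 3, 5 and 6. The groups did not overlap, with saline replicate 1 and StcE replicate 1 the nearest to each other. The log2 fold change was -0.11 (standard error 0.0265, 95% confidence interval -0.17 to -0.051, limma adjusted p = 0.0228), which went to 0.0507 without saline replicate 3 and to 0.0534 without StcE replicate 3. The call was also lost with no filter on low values (limma adjusted p = 0.0519) and in the 8 samples whose replicate numbers both groups share (limma adjusted p = 0.0672). The summed level of the 12 endothelial markers, of which 6 were called lower and 1 (*Egfl7*) higher, was itself lower after StcE, with a log2 difference of -0.080 (exact two-sided permutation test, p = 0.00794). The comparison with that sum was chosen after seeing the data, for this and the other members, and its p-values are not adjusted. The sum weighs the most highly expressed markers most. The highest, *Cdh5*, went from 509.1 to 462.7 FPKM and was itself not called (limma adjusted p = 0.0515). Values relative to that sum were taken on plain log2 FPKM, with no 1 added. On that scale the difference of *Icam2* was -0.11 by itself and -0.030 relative to the sum, with overlapping groups (exact permutation test, p = 0.476). That of *Vcam1* was -0.48 by itself and -0.40 relative to the sum, and that of *Alcam* was 0.24 and 0.32, both without overlap (exact permutation test, p = 0.00794 each). With 1 sample left out, *Tie1*, *Flt1* and *Tek* were called in all 10 fits, and *Pecam1*, *Erg*, *Esam* and *Egfl7* in at most 2 of 10.

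Neither selectin passed the test. *Selp* was at 53.1, 52.0, 51.3, 52.3 and 49.9 FPKM in saline replicates 1 to 5, and at 48.0, 51.4, 47.9, 49.7 and 48.9 in StcE replicates 1, 2, 3, 5 and 6. StcE replicate 2 stood within the saline range and saline replicates 3 and 5 within the StcE range. The log2 fold change was -0.071 with a 95% confidence interval of -0.13 to -0.014 (limma adjusted p = 0.1004). Without StcE replicate 2 it was -0.087 (limma adjusted p = 0.0460). Relative to the endothelial sum, on plain log2 FPKM, the difference of *Selp* was 0.0077, with the opposite sign (exact permutation test, p = 0.714).

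*Sele* had the smallest difference of the 7 on the log2(FPKM + 1) scale. It ran from 24.9 to 25.5 FPKM in saline samples (median 25.4) and from 23.8 to 26.4 in StcE samples (median 25.1), so that the saline range lay inside the StcE range. The difference was 0.0038 on the log2 scale, with an interval of -0.057 to 0.065 (limma adjusted p = 0.952), and it was negative without saline replicate 4 or StcE replicate 1 or 5. This interval leaves room for a change of a few percent either way. On plain log2 FPKM the difference of *Sele* was 0.0039 by itself and 0.084 relative to the endothelial sum. The groups overlapped on the latter scale (exact permutation test, p = 0.0635).

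*Icam1* was the least expressed of the 7. It was at 1.91, 1.67, 2.17, 1.85 and 1.96 FPKM in saline replicates 1 to 5, and at 1.90, 1.88, 1.53, 1.75 and 1.80 in StcE replicates 1, 2, 3, 5 and 6. The groups overlapped, and the mean of 1.77 ± 0.146 FPKM after StcE differed from saline by -0.071 on the log2 scale, with an interval of -0.19 to 0.050 (limma adjusted p = 0.441). It was -0.040 without saline replicate 3 and -0.039 without StcE replicate 3. On plain log2 FPKM the difference of *Icam1* was -0.11 by itself and -0.030 relative to the endothelial sum, with overlap (exact permutation test, p = 0.762). *Icam1* rests on 185 to 267 fragments a sample, a counting error of 6.74% beside a spread between replicates of 8.85%, and 11.7% of its exonic bases are shared with an antisense gene, as are 14.1% of those of *Selp*. The strand setting of the authors' counting is not given in the sources used here, so reads from either strand could not be told apart for those stretches.

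*Mcam* had the highest deposited FPKM of the members and varied by more than its counting error. It was at 122.1, 123.0, 119.8, 133.3 and 122.6 FPKM in saline replicates 1 to 5, and at 128.5, 119.9, 131.9, 135.6 and 129.9 in StcE replicates 1, 2, 3, 5 and 6. The groups overlapped at both ends, since saline replicate 4 was above 4 of the StcE samples and StcE replicate 2 was below 4 of the saline samples. The log2 fold change was 0.056, with an interval of -0.024 to 0.14 (limma adjusted p = 0.349). Relative to the endothelial sum, on plain log2 FPKM, *Mcam* differed by 0.14, still with overlap (exact permutation test, p = 0.0238).

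**Figure D2:**
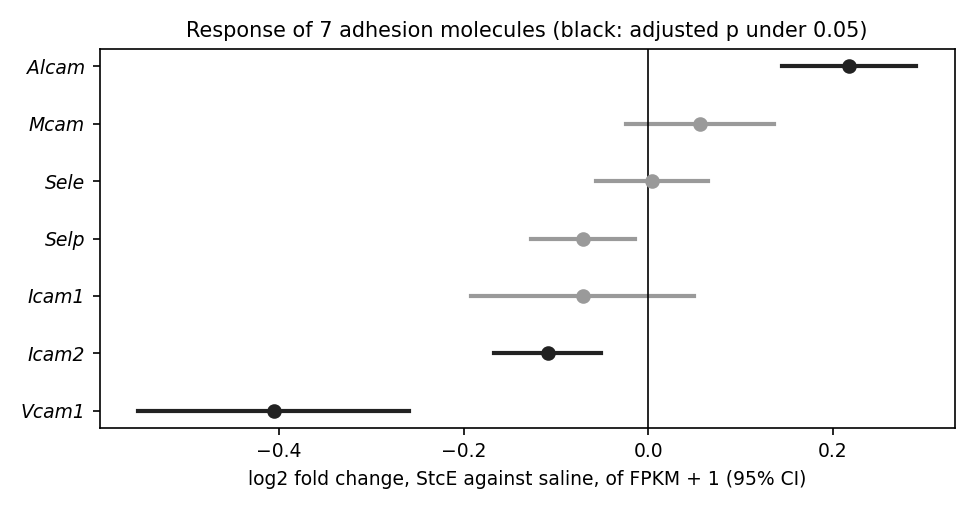
Difference of log2(FPKM + 1) between StcE and saline for the 7 expressed adhesion molecules, with 95% confidence intervals from limma. Black marks an adjusted p under 0.05: *Vcam1* (-0.41) and *Icam2* (-0.11) lie left of 0 and *Alcam* (0.22) right of it, and the interval of *Selp* leaves out 0 although its adjusted p is 0.1004.

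Whether the molecules differed from each other in their response was tested with their ratios within a sample. The difference of log2(FPKM + 1) within each of the 21 pairs was compared between groups with an exact two-sided permutation test, whose smallest possible p of 0.00794 became 0.0167 after adjustment over the pairs. In all, 12 pairs passed an adjusted p of 0.05 and 10 did not overlap. Every pair without overlap held *Vcam1* or *Alcam*, the members with the largest changes, so the pairs are not separate results. The same count was not taken over pairs of other genes. On this scale *Vcam1* lost ground to each of the other 6, by 0.30 against *Icam2*, 0.33 against *Icam1*, 0.34 against *Selp*, 0.41 against *Sele*, 0.46 against *Mcam* and 0.62 against *Alcam* (adjusted p = 0.0167 for each, exact permutation test). The added 1 makes these shifts smaller than those of the plain FPKM ratios, which were 0.37 against *Icam2* and *Icam1*, 0.41 against *Selp*, 0.48 against *Sele*, 0.54 against *Mcam* and 0.72 against *Alcam*. So the integrin ligands *Vcam1* and *Icam1*, both known to be induced by cytokines, differed in their response.

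On the log2(FPKM + 1) scale *Alcam* gained on *Sele* by 0.21, on *Selp* and *Icam1* by 0.29 each and on *Icam2* by 0.33 (adjusted p = 0.0167 for each, exact permutation test). Its gain of 0.16 on *Mcam* did not pass (adjusted p = 0.0513). *Icam2* lost 0.11 against *Sele* and 0.17 against *Mcam*, with overlapping ratios (adjusted p = 0.0278 for both). The selectins did not separate: the ratio of *Sele* to *Selp* differed by 0.074 (adjusted p = 0.0889). The summed level of the 8 molecules was 331.4 to 343.5 FPKM in saline and 324.1 to 337.6 in StcE samples. Within that sum the mean share of *Mcam* was 37.0% in saline and 39.3% in StcE, that of *Icam2* 34.4% and 32.5%, that of *Alcam* 2.97% and 3.56% and that of *Vcam1* 1.99% and 1.45%. The size of these shares also depends on the gene lengths used for FPKM.

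**Figure D3:**
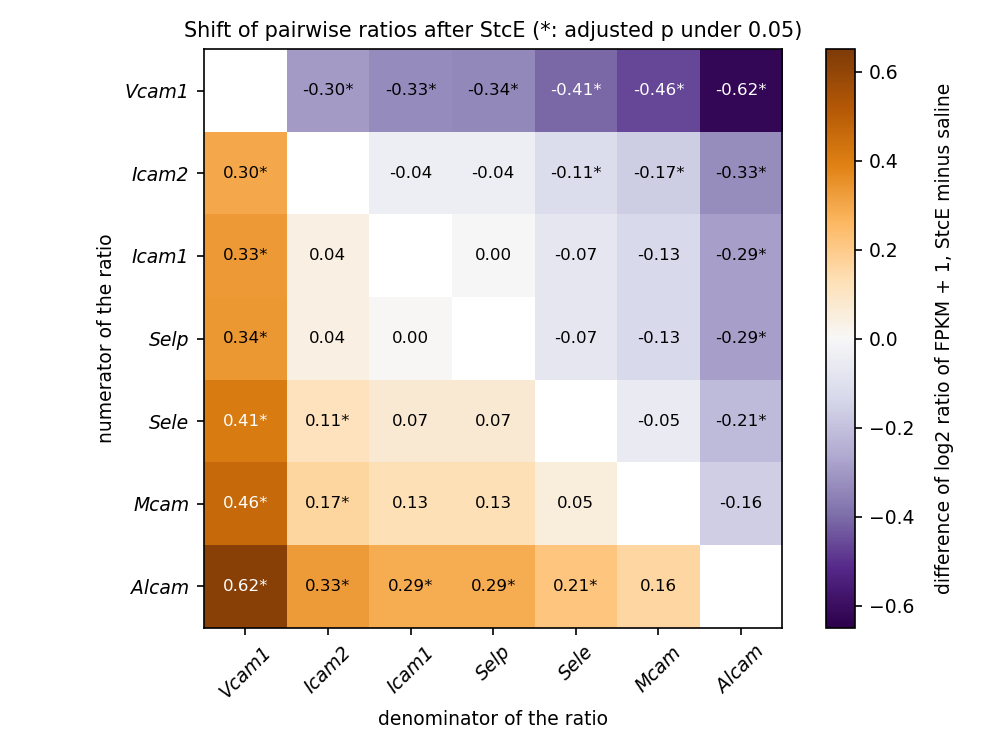
Change of the log2 ratio of FPKM + 1 for every pair of the 7 expressed molecules, StcE minus saline, with the numerator in rows and the denominator in columns; stars mark an adjusted p under 0.05 over 21 pairs. The row of *Vcam1* is starred and negative throughout, and the row of *Alcam* is positive throughout with *Mcam* as its only pair without a star.

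Other genes of the same process were taken from 8 lists, and their counts are set beside the 11.9% of all tested genes that were called. Of the other molecules by which leukocytes contact and cross endothelium, 20 of 29 were tested, and 6 were lower and 2 higher (40.0%), with a median log2 fold change of -0.063. *Pecam1* and *Esam*, both among the lower genes, are also endothelial markers, as are *Cdh5* and *Emcn*. This count and that of the markers are therefore not separate. With 1 sample left out, *Pecam1* was called in 2 of 10 fits and *Esam* in 0. *Bcam*, a laminin-binding immunoglobulin-family molecule, went from 33.2 ± 1.66 to 27.7 ± 1.42 FPKM (-0.25, limma adjusted p = 0.00264), and *Cx3cl1*, the membrane-bound chemokine fractalkine, from 6.77 ± 0.511 to 5.35 ± 0.729 (-0.29, adjusted p = 0.0268). *Cd44*, the hyaluronan receptor, rose from 46.0 ± 1.68 to 52.6 ± 1.30 FPKM (0.19, limma adjusted p = 0.00169), and *Pvr*, a nectin-like molecule of the junction, rose from 8.39 ± 0.274 to 9.54 ± 0.396 (0.17, limma adjusted p = 0.00765). *Cdh5*, VE-cadherin and the highest of the list, was at 509.1 ± 25.9 and 462.7 ± 22.3 FPKM and did not pass (limma adjusted p = 0.0515). With 1 sample left out, *Bcam*, *Cd44* and *Pvr* were called in all 10 fits and *Cx3cl1* in 4 of 10, and the count of 8 was 5 without saline replicate 1 or 2 or StcE replicate 1 or 6, and 4 without saline replicate 3.

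The partners of these molecules on leukocytes were nearly missing. Of 11 counter-receptor genes, 9 had a mean under 1 FPKM, at most 0.109, and 0 of the 2 tested were called by limma. These were *Itgb1*, the β1 integrin chain (250.3 ± 2.48 FPKM with saline and 252.0 ± 4.18 with StcE, adjusted p = 0.793), and *Itga4*, the α4 chain of the VCAM1 receptor (13.3 ± 0.479 and 13.9 ± 1.04 FPKM, limma adjusted p = 0.521), which falls outside the naming rule and was chosen after its values were seen. The glycan enzymes that build selectin ligands had 11 of 15 tested, 0 lower and 1 higher, with a median of 0.0032. That gene, *Chst1*, a carbohydrate sulfotransferase, rose from 28.5 ± 2.12 to 35.2 ± 1.30 FPKM (0.30, limma adjusted p = 0.00217, called in all 10 fits with 1 sample left out), while *B4galt1*, the highest of the list, was at 45.9 ± 0.424 and 46.1 ± 2.16 FPKM. Without saline replicate 2 the count of that list was 2.

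Inside the cell, ICAM1 and VCAM1 are tied to actin by linker proteins under the leukocyte. The list of 16 genes held such linkers and also small GTPases, their activators and *Cav1*. Of these 15 were tested, and 3 were lower and 1 higher. *Cav1*, the caveolae protein, fell from 652.5 ± 11.9 to 541.2 ± 9.74 FPKM (-0.27, limma adjusted p = 1.4e-05), and *Ezr*, the linker ezrin, rose from 24.1 ± 1.34 to 28.0 ± 0.710 (0.21, limma adjusted p = 0.00417), each called in all 10 fits with 1 sample left out. *Vcl* (vinculin, -0.17) and *Actn4* (α-actinin 4, -0.12) fell with limma adjusted p of 0.0219 and 0.0261, and were called in 7 and 5 of those 10 fits. The count of 4 was 2 without saline replicate 1 or 4 or StcE replicate 3.

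For the NF-κB route, 20 of 21 genes were tested, and 3 were lower and 2 higher, with a median of -0.029. *Tnfaip3*, which encodes the A20 inhibitor of the route and is itself an NF-κB target, rose from 6.94 ± 0.693 to 8.68 ± 0.434 FPKM (0.29, limma adjusted p = 0.00776), and the endotoxin receptor gene *Tlr4* rose from 19.2 ± 0.720 to 21.2 ± 0.712 (0.14, adjusted p = 0.0149). The genes for the precursor of the p50 subunit, *Nfkb1* (-0.14, limma adjusted p = 0.0196), the TNF receptor, *Tnfrsf1a* (-0.13, adjusted p = 0.0241), and the IL-1 receptor, *Il1r1* (-0.24, adjusted p = 0.0388), fell. Both genes that rose were called in all 10 fits with 1 sample left out, *Nfkb1* in 9, *Tnfrsf1a* in 7 and *Il1r1* in 1. The count of 5 was 2 without StcE replicate 3 and 3 without saline replicate 1.

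Of 17 chemoattractant genes 8 were tested, and 2 were lower and 0 higher, with a median of -0.15. They were *Csf1*, the macrophage growth factor (32.4 ± 1.23 to 26.3 ± 1.41 FPKM, -0.29, limma adjusted p = 6.6e-04, called in all 10 fits), and *Cx3cl1* again. *Cxcl12*, the highest of the list, was at 136.2 ± 4.11 and 125.5 ± 7.22 FPKM and did not pass (limma adjusted p = 0.0653). The count ran from 1 to 3 over the fits with 1 sample left out, at 1 without saline replicate 1, 2 or 3 or StcE replicate 1, 3 or 6.

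Sheddases release the outer part of several adhesion molecules, and 10 of the 12 listed enzymes and regulators were tested, with 3 lower and 3 higher. The inhibitor *Timp1* rose from 88.5 ± 3.35 to 122.0 ± 4.65 FPKM (0.46, limma adjusted p = 5.1e-06) and the inhibitor *Timp3* fell from 56.3 ± 1.63 to 43.7 ± 1.81 (-0.36, limma adjusted p = 2.9e-05). The protease *Adam8* rose from 25.3 ± 0.823 to 28.9 ± 0.916 (0.18, limma adjusted p = 0.00242), and *Adam10* fell from 66.6 ± 1.75 to 60.1 ± 2.20 (-0.14, limma adjusted p = 0.00852). All 4 were called in all 10 fits with 1 sample left out. Of the Weibel-Palade genes, which serve the store of P-selectin, 12 of 14 were tested, and 1 was lower (*Rab3d*, -0.29, limma adjusted p = 0.00626, called in all 10 fits) and 1 higher (*Vamp3*, 0.11, adjusted p = 0.0280, called in 3 of 10), with a count of 1 in place of 2 without any of saline replicates 1 to 4 or StcE replicate 1, 2 or 5. *Cd63*, the highest of that list, was at 110.1 ± 1.80 and 111.3 ± 4.15 FPKM. *Vwf*, the defining cargo of that store, was at 1.42 FPKM in saline and 1.14 in StcE samples (limma adjusted p = 0.666).

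**Figure D4:**
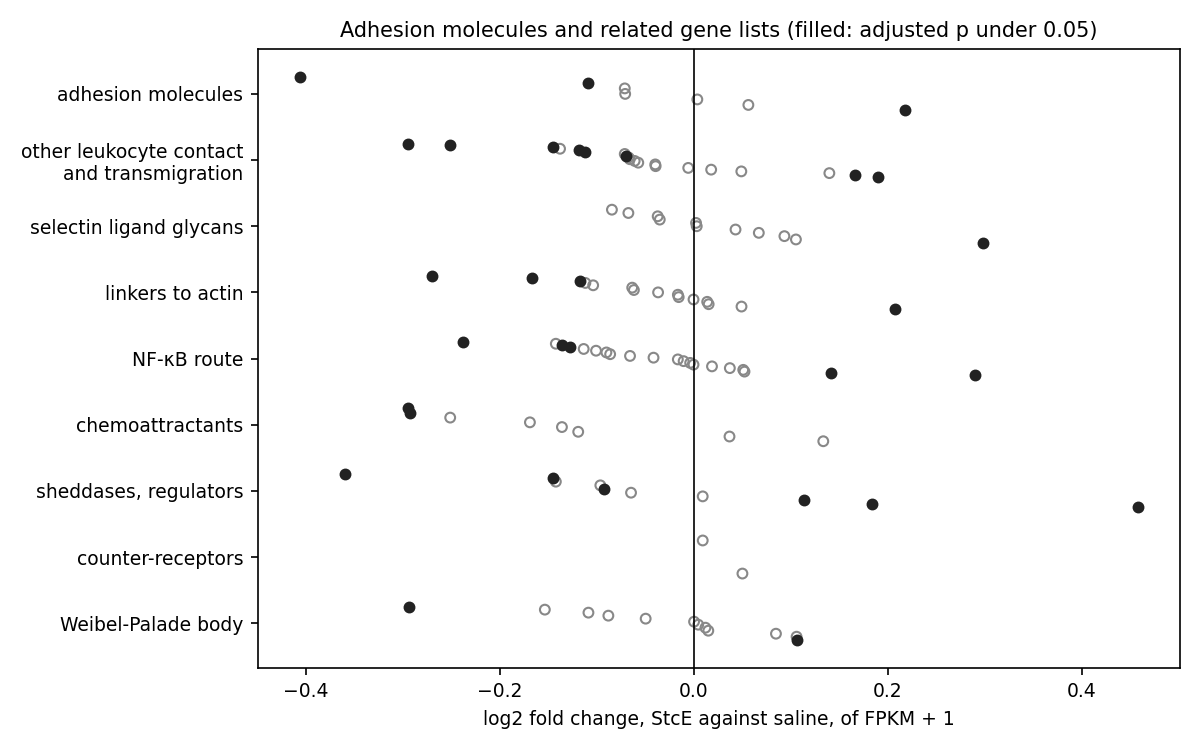
Difference of log2(FPKM + 1) between StcE and saline for each tested gene of the adhesion molecules and of the 8 related lists, 1 row a list. Filled points have an adjusted p under 0.05. Where a row has filled points, they lie on both sides of 0, except for the selectin ligand enzymes and the chemoattractants. The outermost are *Timp1* at 0.46 and *Vcam1* at -0.41.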

How the data were processed

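RNA of 10 bEnd.3 samples, 5 saline and 5 StcE, was made into directional poly-A libraries. Trimmed reads were aligned to GRCm38, and the submitters' processing notes name HISAT2 2.0.5, featureCounts 1.5.0-p3, DESeq2 1.32.0 and mm10. The authors deposited FPKM, with 1 column per sample, for 27024 named rows, and 22874 rows were empty. Since counts were not among the files used here, DESeq2 was not run.

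The 11062 genes whose mean FPKM reached 1 were fitted as log2(FPKM + 1) by limma (version 3.58.1, R 4.3.3, eBayes with trend), condition as sole term and Benjamini-Hochberg adjustment. Single values were tested with exact two-sided permutation over 252 arrangements (smallest p = 0.00794). Fragments were recovered with GENCODE vM21 exon lengths for 26724 genes (tolerance 0.02 fragments), 21864510 to 33147226 a sample, and limma's voom on them was an alternative, as were another pseudocount, filters, scalings, eBayes settings, array weights, the replicate block and leaving out each sample. Same-group samples were not copies of each other (chi-square per degree of freedom 3.21 to 9.17). The procedure was tested on simulated data. BLAST 2.17.0 found near-identical copies (at least 95% identity over 150 bases) over 20.2% of the *Icam1* and 14.9% of the *Selp* transcript, in the genes that overlap them.

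The members, the lists and the rule for named genes were chosen with earlier results of these data known. By that rule the genes named were all 8 members, up to 4 called genes of each list with the largest fold change, the most highly expressed gene of each list, the endothelial markers, and the 3 genes nearest in standardised values to the member with the lowest limma p.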

Additional observations from a re-analysis of the deposited data

Results flagged for a closer look

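Among the 16 groups of 5 values (8 genes, saline and StcE), 1 held a sample far from the others. *Mcam* in saline replicate 4 was at 133.3 FPKM, where the other saline samples ran from 119.8 to 123.0, a gap of 0.763 of the whole range. Chance flags about 1 in 20 such groups, or 0.8 of 16.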

How the results depend on the processing

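Over 21 alternatives, *Vcam1* was called in 21 (log2 fold change -0.49 to -0.36, adjusted p up to 0.0174) and *Alcam* in 21 (0.20 to 0.24, up to 0.0491). *Icam2* was called in 16 and missed the threshold with no filter (adjusted p = 0.0519), with the replicate block (0.173), in the same 8 samples without the block (0.0672) and without replicate 3 of saline or of StcE. *Sele* ran from -0.012 to 0.025 when 1 sample was left out, negative without saline replicate 4 or StcE replicate 1 or 5, and *Selp* was at 0.0077 relative to the endothelial sum, an alternative chosen after seeing the data. The members called numbered 2 to 4 and the pairs past the threshold 10 to 14 when 1 sample was left out. Same-numbered samples did not deviate together (correlations -0.10 to 0.05). Nothing states whether the numbers pair the samples, and these few correlations cannot decide it.

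With the replicate block, 349 genes were called (162 lower, 187 higher), 1 each of the contact, linker, NF-κB and Weibel-Palade lists and 3 of the sheddases, against 885 (452 lower) in the same 8 samples without it, with 5 contact, 2 linker and 3 NF-κB genes. With no filter 801 were called (409 lower, 392 higher), with 5 contact, 2 linker, 3 NF-κB, 1 chemoattractant and 1 Weibel-Palade gene. With voom 4 chemoattractants were called. Leaving out 1 sample gave 793 (without StcE replicate 3; 838 without saline replicate 1) to 1255 genes, 409 to 667 lower and 384 to 588 higher, 4 to 7 contact, 1 to 2 selectin ligand, 2 to 5 linker, 2 to 5 NF-κB, 1 to 3 chemoattractant and 1 to 2 Weibel-Palade genes. The cause of these moves was not tested.

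Depth limits *Madcam1* (2 to 6 fragments a sample) and, less, *Icam1* (185 to 267).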
